A study of Mus musculus with 4 samples.

Results

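Neutrophils of mouse lung tumors that carried little RNA for the chemokines Ccl3 and Ccl4 are described here, by single-cell RNA counts. A cell was taken when it held 200 genes or more and mitochondrial RNA was no more than 10% of its UMIs (unique molecular identifiers, 1 per captured RNA molecule), when 10 neutrophil genes together made up at least 5% of its UMIs, when Camp, Ngp and Ltf, genes of immature neutrophils, together gave fewer than 10 UMIs, and when Ccl3 and Ccl4 together made up less than 1% of its UMIs. The 10 genes were the calprotectin genes S100a8 and S100a9, the receptor genes Csf3r, Cxcr2 and Il1r2, the metalloproteases Mmp8 and Mmp9, and Retnlg, G0s2 and Hdc. The rule chose 625 of the 3376 tumor cells that passed the filters, 120 in the WT tumor library and 505 in the Rab37 KO (KO) tumor library, out of 13344 cells passing in all 4 libraries. These 625 cells are called low-Ccl neutrophils below, and cells chosen by the same clauses in normal lung, 214 in WT and 356 in Rab37 KO, are called matched normal cells.

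The study sorted live cells carrying CD45, the common surface protein of blood leukocytes, from C57BL/6 mice that were wild type (WT) or lacked Rab37 (Rab37 KO), a small GTPase of vesicle traffic. Tumor libraries came from mice injected with the carcinoma line LLC, derived from a mouse lung tumor, and the libraries called normal lung came from mice injected with Matrigel alone. All tissue was taken at day 14, and each of the 4 groups is 1 library made with a 3′ droplet kit. The sources used here do not give the age and sex of the mice, the number pooled per library or which part of Rab37 was deleted. With 1 library per group there is no spread between replicates, so no test was made and no p-value is given. Values in parentheses after a level, ratio or share are exact 95% intervals that cover counting error alone.

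Neutrophils are short-lived phagocytes made in the bone marrow. They carry preformed granules, migrate along gradients of chemokines and formyl peptides, and release cytokines of their own after activation. Ccl3 and Ccl4 are secreted ligands of chemokine receptors and draw in other leukocytes. In tumors, neutrophils range from cells close to those of blood to cells with strong chemokine, glycolytic and hypoxia programs. S100a8 and S100a9 form calprotectin, an abundant protein of the neutrophil cytoplasm, Ifitm1 belongs to a family of membrane proteins that restrict virus entry, and Lrg1 encodes a secreted glycoprotein of neutrophil granules and of the acute phase.

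The cells are called neutrophils because of the genes in the rule, and they held some RNA of other cell types. Ifitm1 and Lrg1, which labelled the cells but did not choose them, cannot settle that identity. Both were far lower in the matched normal cells, which the same clauses chose. Levels are CPM, UMIs of a gene per 1000000 UMIs summed over the cells of a library, and in 3′ data they are not scaled by gene length. The level of Ifitm1 in WT tumor was 10300 CPM (10000 to 10600), and in KO tumor 9190 CPM (9090 to 9300). Lrg1 was at 1110 and 1150 CPM in the same order. Of 79 marker genes of 11 other cell types, 38 had no UMI in the WT low-Ccl neutrophils and 17 had none in the KO ones. The eosinophil genes Prg2, Epx, Il5ra and Prg3 and the mast cell and basophil genes Mcpt8 and Cpa3 were at 0 in both tumor libraries. The whole eosinophil list, which also held Ccr3 and Alox15, summed to 2.48 CPM in WT tumor and 55.3 CPM in KO tumor. In KO tumor 2.97% of the cells held RNA of that list.

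Macrophage RNA was not at 0. The 14 macrophage and monocyte genes summed to 1980 CPM in WT tumor, 4030 CPM in KO tumor, 1150 CPM in WT normal lung and 1500 CPM in KO normal lung. The 6 platelet genes summed to 44.7, 970, 20.0 and 38.4 CPM in that order, the 8 T cell genes to 201, 56.5, 265 and 114 CPM, and the 6 B cell genes to 112, 70.3, 499 and 1230 CPM. All macrophage genes, all T cell genes and all B cell genes had UMIs in both tumor libraries, and of the platelet genes Gp1bb was at 0 in both. In 53 KO low-Ccl neutrophils (10.5%), markers of other types exceeded 0.5% of UMIs. Those 53 cells were deep, with a median of 17131 UMIs against 3646.5 in the other KO cells, and they held 30.7% of the library's low-Ccl UMIs. In WT tumor 9 cells (7.50%) with 14.5% of the UMIs exceeded that share. Ratios without these cells are given below as the value without mixed cells, wherever they differ by enough to matter.

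Depth, sex and software also set the libraries apart. Low-Ccl neutrophils had a median of 2500.5 UMIs in WT tumor and 3931 in KO tumor, against 2361.5 and 2688.5 in the matched normal cells, with 402729, 3185499, 649501 and 1223233 UMIs in all. The WT tumor library was the smallest, with 647 passing cells. In WT tumor, 33 low-Ccl neutrophils had Xist UMIs alone and 0 had Y-linked UMIs alone, while in KO tumor these numbers were 1 and 258, so genotype and sex cannot be told apart in the tumor libraries. Both normal libraries held cells of either kind. Both tumor matrices name software 3.1.0 and both normal matrices 3.0.1, so tissue cannot be told apart from that version. Libraries shared between 0 and 8 cell barcodes in pairs, and no barcode was that of a chosen cell in both libraries of a pair. Rab37 itself had 4 UMIs in the WT low-Ccl neutrophils (9.93 CPM) and 1 UMI in the KO ones (0.314 CPM), and 5 and 1 UMIs in the matched normal cells, which is too few to check the labels within these cells.

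The values that chose the cells are given as a description. The 10 neutrophil genes made up a median of 13.9% of UMIs in WT tumor (range 5.01 to 52.2) and 13.7% in KO tumor (5.01 to 45.6). S100a8 stood at 68300, 48400, 44900 and 50400 CPM in WT tumor, KO tumor, WT normal lung and KO normal lung, and S100a9 at 71800, 64800, 61700 and 70200 CPM. Ccl3 and Ccl4 together had a median share of 0.164% in WT tumor and 0.318% in KO tumor, against 0.288% and 0.298% in the matched normal cells. Neither gene had a UMI in 38 of the WT cells (31.7%) and in 54 of the KO cells (10.7%).

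The limit of 1% cut through a continuous distribution, most visibly in the KO library. Just inside it, at 0.8% to 1%, lay 7 WT and 66 KO cells, and just outside, at 1% to 1.2%, lay 10 WT and 58 KO cells. At the limit on neutrophil genes, 9 WT and 63 KO cells lay at 4% to 5%, and 9 and 38 at 5% to 6%. At the limit on Camp, Ngp and Ltf, 6 WT and 20 KO cells had 5 to 9 UMIs, and 3 and 15 had 10 to 14. Low-Ccl neutrophils were 76.4% (69.0 to 82.8) of the 157 mature neutrophils of WT tumor and 51.4% (48.2 to 54.5) of the 983 of KO tumor. In normal lung the share was 56.8% (51.6 to 61.8) of 377 cells in WT and 64.5% (60.3 to 68.5) of 552 in Rab37 KO. They were 18.5% of all passing cells in each tumor library.

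**Figure D1:**
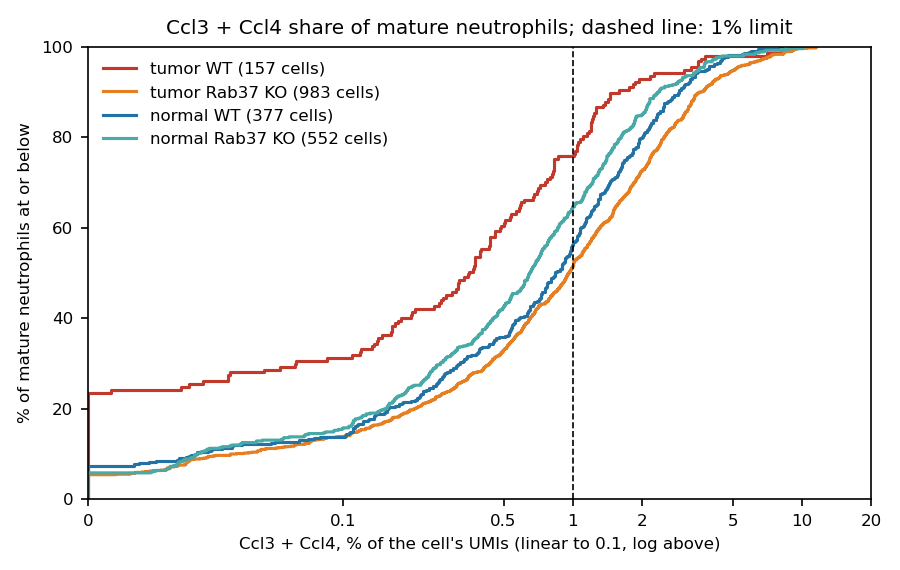
Cumulative share of mature neutrophils (y axis, %) against the share of each cell's UMIs from Ccl3 and Ccl4 (x axis, %, linear to 0.1 and logarithmic above), 1 line per library. The dashed line is the 1% limit, which 76.4% of the WT tumor cells, 51.4% of the KO tumor cells, 56.8% of the WT normal lung cells and 64.5% of the KO normal lung cells lie below.

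Chemokine, ferritin and cytoskeletal RNA filled the low-Ccl neutrophils. Outside the genes of the rule, the most abundant was Cxcl2, a ligand of Cxcr2 that attracts further neutrophils, at 28600 CPM in WT tumor and 29500 CPM in KO tumor. Matched normal cells held 36000 and 31200 CPM of Cxcl2, so it was abundant in all 4 libraries although Ccl3 and Ccl4 were low. Il1b, the precursor of interleukin 1 beta, stood at 8000 and 8470 CPM in tumor and 8650 and 9040 CPM in normal lung. Srgn, the core protein of granule proteoglycans, was at 7590 and 9490 CPM in tumor and 15700 and 16800 CPM in normal lung. The other genes among the 15 most abundant were Fth1 and Ftl1 (ferritin), Malat1, Tmsb4x, Wfdc17, Gm42418, Ifitm1, Actb, Junb, Cebpb, S100a6 and S100a11. Of these, Wfdc17 and Ifitm1 were the ones whose tumor level stood furthest from normal lung.

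Tumor low-Ccl neutrophils were compared with matched normal cells of the same genotype, which asks how the same kind of cell differs between LLC tumor and Matrigel-injected lung. A gene was measured with at least 20 UMIs over both groups and at least 5 expected in the smaller group, and it was counted as higher or lower past 1.5-fold. In WT, 945 of 4030 measured genes were higher in tumor (23.4%) and 781 lower (19.4%). In Rab37 KO, 2477 of 7504 were higher (33.0%) and 915 lower (12.2%). Of 4027 genes measured in both genotypes, 497 were higher in both (12.3%), 347 were lower in both (8.62%) and 73 went opposite ways. The WT and KO comparisons share no library, but tissue goes with software version in both. Without mixed cells 402 of 3645 genes were higher in both and 374 lower, and 343 and 286 of these were the genes already counted.

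Both marker genes of the label, Ifitm1 and Lrg1, were higher in tumor. Ifitm1 (chromosome 7, 140967221 to 140969825, plus strand, mm10) was at 1140 CPM in WT normal lung and 1170 CPM in KO normal lung, so the tumor level was 9.03 times normal (8.35 to 9.78) in WT and 7.88 times (7.48 to 8.32) in KO. Lrg1 (chromosome 17, 56119678 to 56122001, minus strand) was at 154 and 158 CPM in normal lung, and the tumor level was 7.21 times (5.79 to 9.05) and 7.27 times (6.29 to 8.45) that. For both genes the 2 tumor libraries lay together and far above both normal libraries. These 2 genes are part of how the cells were labelled, but not of the rule that chose them.

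Wfdc17 (chromosome 11, 83703991 to 83706268, plus strand), which encodes a small secreted protein with a whey acidic protein domain made by activated myeloid cells, showed the same split. Its level was 13200 CPM in WT tumor, 9530 CPM in KO tumor, 507 CPM in WT normal lung and 615 CPM in KO normal lung, a tumor excess of 26.0-fold (23.3 to 29.2) and 15.5-fold (14.4 to 16.7). Its relative Wfdc21 stood at 2460, 1940, 617 and 475 CPM. Igfbp6 (chromosome 15, 102144362 to 102149511, plus strand), a secreted binder of insulin-like growth factors, was nearly absent from normal cells, at 12.3 and 17.2 CPM, and reached 544 CPM in WT tumor and 322 CPM in KO tumor. Prok2 (chromosome 6, 99711299 to 99726392, minus strand), which encodes the secreted peptide Bv8 of myeloid cells, was at 107, 140, 6.16 and 12.3 CPM in the same order. Its tumor to normal ratio was 17.3 (6.30 to 66.5) in WT, where normal cells gave 4 UMIs, and 11.4 (6.86 to 20.6) in KO. In each of these genes the lower tumor library stood above the higher normal one.

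Of 16 genes measured in both genotypes on a list of alarmins, stefins and acute phase genes, 7 were higher in tumor in both and 0 lower, against the 12.3% and 8.62% of all genes given above. The 7 were Ifitm1, Lrg1, Wfdc17, Prok2, Stfa2, S100a10 and S100a4. Ifitm1 and Lrg1 are label markers, and the list was chosen with earlier results of these data known. The count is thus not independent evidence. S100a10 and S100a4, calcium-binding proteins also abundant in macrophages, depended on the mixed cells. In Rab37 KO the S100a10 ratio of 4.23 became 1.86 without those cells and the S100a4 ratio of 2.52 became 1.29. Over all settings the WT ratio of S100a10 reached down to 0.905 and the KO ratio of S100a4 to 0.880. Stfa2, a stefin that inhibits cysteine proteases, drew 62.1% of its UMIs in WT tumor from 1 cell. Saa3, an acute phase serum amyloid, had the largest ratio among genes at 100 CPM or more with intervals that exclude 1, at 363 CPM in WT tumor and 939 CPM in KO tumor against 3.08 and 0 CPM in normal lung, but 71.2% and 46.2% of its tumor UMIs came from 1 cell of each library. It was found in 10 WT and 92 KO low-Ccl neutrophils.

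Shares of cells with a UMI gave the same picture at equal depth. Each cell was thinned to 1000 UMIs, which left out 3 cells each in WT tumor, KO tumor and WT normal lung and 2 in KO normal lung. Ifitm1 was then found in 94.9% (89.2 to 98.1) of low-Ccl neutrophils of WT tumor, 96.2% of KO tumor, 46.4% of WT normal lung and 43.8% of KO normal lung, and B cells, which served as background, gave 1.79%, 4.35%, 0.135% and 0.151%. Unthinned, Ifitm1 was in 97.5%, 98.6%, 56.5% and 64.0% of the cells. Lrg1 was in 60.7%, 69.7%, 11.4% and 11% of thinned cells and in 77.5%, 93.5%, 26.6% and 29.2% of unthinned cells. Wfdc17 was in 92.3%, 97.6%, 24.2% and 21.8% after thinning (94.2%, 99.4%, 35.0% and 33.4% before), against 8.93%, 10.1%, 5.13% and 4.69% of thinned B cells. Igfbp6 was in 37.6%, 31.7%, 0.474% and 1.98% of thinned cells (63.3%, 68.9%, 3.74% and 5.34% before), and the Igfbp6 shares of B cells were at most 1.79%. The tumor excess of these 4 genes was thus seen in the share of cells as well as in summed UMIs.

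**Figure D2:**
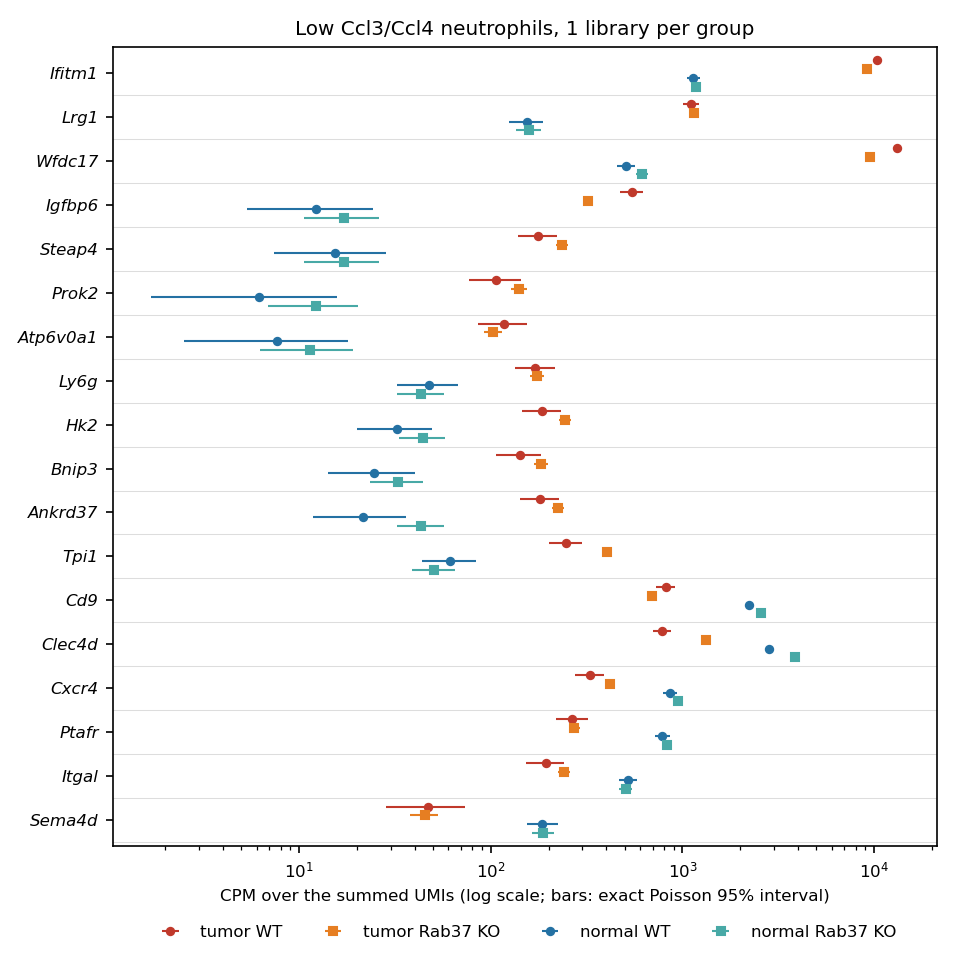
Levels of 18 genes (x axis, CPM of the summed UMIs, log scale) in low-Ccl neutrophils of WT tumor and KO tumor and in matched cells of WT normal lung and KO normal lung, with exact Poisson 95% intervals as bars. For Ifitm1, Lrg1, Wfdc17, Igfbp6, Prok2, Ly6g and Hk2 both tumor points lie right of both normal points, and for Cd9, Clec4d, Cxcr4, Ptafr and Itgal they lie left.

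Many genes of glycolysis and of the response to low oxygen were higher in tumor. Hypoxia-inducible factors (HIF) bind DNA at short sites with the core ACGTG or GCGTG and switch on glucose uptake, glycolytic enzymes and mitophagy genes. Of 28 genes of the list measured in both genotypes, 17 were higher in tumor in both and 0 lower, and the count was again 17 and 0 without mixed cells. The median log2 ratio was 0.73 in WT and 1.34 in Rab37 KO, beside 0.08 and 0.25 over all measured genes. The 17 were the glycolytic enzymes Hk1, Hk2, Gpi1, Pfkl, Aldoa, Tpi1, Gapdh, Eno1, Pkm and Ldha, the regulators Pfkfb3 and Pfkfb4, and Bnip3, Hilpda, Ero1l, P4ha1 and Ankrd37. The list was drawn up with earlier results of these data known, so its direction is not independent evidence.

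Hk2, the inducible hexokinase at the head of glycolysis, was at 186 CPM in WT tumor, 245 CPM in KO tumor, 32.3 CPM in WT normal lung and 44.1 CPM in KO normal lung, or 5.76 times (3.51 to 9.84) and 5.55 times (4.21 to 7.46) normal. One WT cell held 22.7% of the Hk2 UMIs of its library. Bnip3, a mitophagy receptor, was at 142, 182, 24.6 and 32.7 CPM and Ankrd37, a small ankyrin repeat protein, at 181, 224, 21.6 and 43.3 CPM. Tpi1, triosephosphate isomerase, stood at 246, 402, 61.6 and 50.7 CPM and Ldha, which turns pyruvate into lactate, at 646, 821, 256 and 235 CPM. In all 5 genes both tumor libraries exceeded both normal ones. Slc16a3, the lactate exporter, went the other way, at 512 and 538 CPM in tumor against 754 and 926 CPM in normal lung, though past 1.5-fold only in KO (0.678 and 0.581). After thinning, Hk2 was found in 14.5%, 19.3%, 3.79% and 5.37% of cells in the 4 libraries (29.2%, 44.6%, 7.94% and 10.4% unthinned), with 3.57%, 5.80%, 0.810% and 1.21% in B cells.

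The promoters of 3 of these genes are shown because they carry the HIF core more than once, beside Prok2 with the same letters and Ifitm1 without them. Sequences are the 250 bases before the annotated start in RefSeq, on GRCm38.p6 (the mm10 assembly), written 5′ to 3′ on the gene's strand, with ACGTG or GCGTG on either strand in capitals and overlapping matches joined. The regions are chr8:45999851-46000100 (minus) for Ankrd37, chr7:138909507-138909756 (minus) for Bnip3, chr6:82774455-82774704 (minus) for Hk2, chr6:99726393-99726642 (minus) for Prok2 and chr7:140967826-140968075 (plus) for Ifitm1. The Ifitm1 and Ankrd37 windows lie inside wider gene spans, 140967221 to 140969825 and 45996902 to 46005707, whose starts differ from RefSeq's. Bases before those other starts were not read.
Ankrd37: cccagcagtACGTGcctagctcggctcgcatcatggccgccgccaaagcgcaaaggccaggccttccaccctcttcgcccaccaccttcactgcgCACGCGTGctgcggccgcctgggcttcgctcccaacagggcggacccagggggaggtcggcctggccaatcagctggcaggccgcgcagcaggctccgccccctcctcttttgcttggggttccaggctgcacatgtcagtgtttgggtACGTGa
Bnip3: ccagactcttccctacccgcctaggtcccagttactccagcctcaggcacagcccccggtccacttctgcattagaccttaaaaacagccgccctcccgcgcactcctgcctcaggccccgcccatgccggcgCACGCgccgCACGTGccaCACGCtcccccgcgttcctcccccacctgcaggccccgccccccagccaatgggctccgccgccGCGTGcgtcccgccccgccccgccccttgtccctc
Hk2: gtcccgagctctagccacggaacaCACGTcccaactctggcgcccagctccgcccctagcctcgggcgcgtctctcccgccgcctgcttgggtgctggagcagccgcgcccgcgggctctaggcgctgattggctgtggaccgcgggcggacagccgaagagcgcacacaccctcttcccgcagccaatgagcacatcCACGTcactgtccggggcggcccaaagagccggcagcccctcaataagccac
Prok2: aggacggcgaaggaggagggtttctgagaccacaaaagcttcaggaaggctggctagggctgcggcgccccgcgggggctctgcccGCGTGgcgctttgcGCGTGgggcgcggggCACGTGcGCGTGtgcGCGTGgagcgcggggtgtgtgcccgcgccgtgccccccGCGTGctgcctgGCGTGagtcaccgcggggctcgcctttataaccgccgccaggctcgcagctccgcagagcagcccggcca
Ifitm1: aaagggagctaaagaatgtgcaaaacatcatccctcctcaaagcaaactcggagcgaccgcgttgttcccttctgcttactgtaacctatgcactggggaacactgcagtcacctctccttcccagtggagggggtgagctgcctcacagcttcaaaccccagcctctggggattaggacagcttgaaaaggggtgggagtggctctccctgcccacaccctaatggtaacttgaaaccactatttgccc
At least 1 match lay in this window for 24 of the 26 listed genes with a RefSeq promoter (92.3%), against 11226 of 27025 genes overall (41.5%). The share was 42.9% of 14 alarmin genes and 19.0% of 21 interferon genes. Among the 10 genes ranked highest in tumor it was 40.0%, near that of all genes. The list was made of glycolysis and hypoxia genes, the kinds that HIF switches on, so its high share describes the list and not these cells. Tpi1, also higher in tumor, had no match in its window. The shares were not adjusted for the base composition of the promoters. A match describes the letters in the window and is not a measured site, and whether HIF acted here was not tested.

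Granule and maturity genes were split. Ly6g, the surface antigen that defines mouse neutrophils in cytometry, was at 171 CPM in WT tumor, 174 CPM in KO tumor, 47.7 CPM in WT normal lung and 43.3 CPM in KO normal lung, 3.59 times (2.32 to 5.68) and 4.01 times (3.02 to 5.43) normal. Thinned, it was found in 9.40%, 12.7%, 3.79% and 4.24% of the cells (24.2%, 31.1%, 7.94% and 9.55% unthinned), and in 0 of 56 and 0 of 69 tumor B cells, which allows shares of up to 5.36% and 4.35%. Lcn2, a granule protein that binds bacterial siderophores, was at 1860, 1640, 751 and 871 CPM, and Hp, haptoglobin, at 1570, 1090, 597 and 447 CPM. Anxa1, an anti-inflammatory annexin of the neutrophil cytoplasm, was at 988, 794, 296 and 333 CPM. All 4 genes were higher in both tumor libraries than in either normal one. Of 18 maturity genes measured in both genotypes, 5 were higher in tumor in both (Ly6g, Cd177, Anxa1, Ifitm6 and Cebpd) and 5 lower (Cxcr4, Fpr1, Fpr2, Trem1 and Msrb1). Over all genes 12.3% were higher and 8.62% lower, and without mixed cells 5 maturity genes were higher and 3 lower. Immature neutrophils were kept out by the rule and made up 12 of 169 WT and 147 of 1130 KO tumor cells passing the neutrophil limit, against 4 of 381 and 7 of 559 in normal lung. How far cells near that limit add to the granule genes was not tested.

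In a list of chemotactic and cytokine receptors, more genes were lower than higher in tumor. Of 24 measured in both genotypes, 10 were lower in both, 2 were higher and 12 were neither, where 8.62% of all genes were lower and 12.3% higher. Cxcr4, the receptor that returns aged neutrophils to the marrow, was at 328 CPM in WT tumor and 421 CPM in KO tumor against 859 and 946 CPM in normal lung, ratios of 0.382 (0.313 to 0.462) and 0.445 (0.411 to 0.482). Ptafr, the receptor of platelet-activating factor, was at 266, 273, 785 and 831 CPM, with ratios of 0.338 (0.272 to 0.418) and 0.329 (0.300 to 0.360). C5ar1, the receptor of complement C5a, was at 258, 404, 653 and 781 CPM. Ccr1, a receptor of Ccl3, was at 665, 921, 1240 and 1680 CPM. In each of the 4 genes no tumor library reached a normal one. The other 6 lower genes were the formyl peptide receptors Fpr1 and Fpr2, Tnfrsf1b, Csf2rb, Ifngr2 and Trem1. Cxcr4, Fpr1, Fpr2 and Trem1 were also counted among the lower maturity genes above. Over the settings the WT ratio of Ifngr2 ran from 0.569 to 1.24. The 2 higher ones were Il4ra, the interleukin 4 receptor, at 154, 205, 37.0 and 35.2 CPM, and Ltb4r1, the receptor of leukotriene B4, at 102, 121, 57.0 and 49.1 CPM.

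Some adhesion genes and surface lectins were lower in tumor as well. Of 18 adhesion and migration genes, 6 were lower in both genotypes (Itgal, Itgax, Cd44, Ceacam1, Actb and Cd9) and 3 higher (Selplg, Itgb1 and Cd47), beside the same 8.62% and 12.3% of all genes. Without mixed cells 6 were lower and 2 higher, since the KO ratio of Itgb1 fell to 1.31, and the WT ratio of Ceacam1 ran from 0.426 to 1.70 over the settings. Cd9, a tetraspanin, was at 817 CPM in WT tumor, 692 CPM in KO tumor, 2230 CPM in WT normal lung and 2580 CPM in KO normal lung. Itgal, the alpha chain of the integrin LFA-1, was at 194, 242, 520 and 506 CPM. Clec4d, a C-type lectin that recognises microbial glycolipids, was at 785, 1320, 2840 and 3870 CPM, ratios of 0.276 (0.244 to 0.311) and 0.341 (0.327 to 0.355). Thinned cells with Clec4d were 54.7% and 70.7% in tumor against 86.3% and 95.5% in normal lung (74.2%, 98.0%, 97.2% and 100% unthinned), and B cells gave at most 4.35%. Sema4d, a semaphorin shed from leukocytes, was at 47.2, 45.2, 186 and 188 CPM. These genes were lower in both tumor libraries than in both normal ones. Selplg, the P-selectin ligand that starts rolling, was higher, at 608 and 662 CPM against 393 and 347 CPM.

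Several ligands and enzymes that make signals were lower in tumor in both genotypes, but the ligand list as a whole differed between genotypes. Of 17 chemokine and cytokine ligands measured in both genotypes, 4 were lower in both and 1 higher, beside 8.62% and 12.3% of all genes. Without mixed cells 2 of 14 were lower and 1 higher. In WT alone 8 of 17 ligands fell and 3 rose past 1.5-fold, where 19.4% of all genes fell and 23.4% rose. In Rab37 KO alone 6 of 24 fell and 10 rose, where 12.2% of all genes fell and 33.0% rose. Without mixed cells these KO counts were 4 and 7 of 23. Il1rn, the interleukin 1 receptor antagonist, was at 189, 315, 639 and 1030 CPM in WT tumor, KO tumor, WT normal lung and KO normal lung. Csf1, the macrophage growth factor, was at 142, 95.1, 374 and 405 CPM. Ptgs2, the inducible cyclooxygenase, was at 643, 1480, 1830 and 2310 CPM, and its antisense neighbour Ptgs2os2 at 24.8, 34.5, 253 and 232 CPM, the lowest ratio (0.0983 and 0.149) among the genes ranked, those at 100 CPM or more with intervals that exclude 1. Whether counting used the strand is not stated in the sources at hand, so reads of these 2 names may not be separable where they overlap. Next in that ranking were Ell2, a transcription elongation factor, Sema4d and Isg20, an RNA exonuclease, at ratios between 0.174 and 0.274.

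Other lists were counted in the same way, beside 12.3% of all genes higher in both genotypes and 8.62% lower. Counts of 1 or 2 in lists of 15 or more genes lie near these shares. Of 15 antigen presentation genes, B2m and Cd80 were lower in both genotypes and none higher. B2m, the light chain of class I molecules, was at 1030, 1100, 1940 and 1870 CPM. Of 7 NADPH oxidase genes, Cybb and Ncf1 were lower and none higher, of 17 immediate early genes 1 (Btg1) was lower and none higher, and of 15 interferon genes 3 were higher and 1 lower. Of 11 suppressive myeloid genes, 5 were higher (Arg1, Wfdc17, Il4ra, Vsir and Pirb) and Clec4d was lower. Of 20 genes of Rab proteins and exocytosis, Stx7 was higher and Rab7 and Stx11 lower. Without mixed cells 4 of 10 suppressive myeloid genes were higher and 1 lower. The interferon count was then 4 higher and 1 lower of 15, and the Rab and exocytosis count 0 higher and 1 lower of 20. Of 13 macrophage markers measured, 9 were higher in tumor and 0 lower, and without mixed cells 1 of 8 was higher and 0 lower. The markers helped to define the mixed cells, so their levels without those cells are lower by construction. The part of other cells' RNA in the lists above was not tested beyond the values given without mixed cells.

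**Figure D3:**
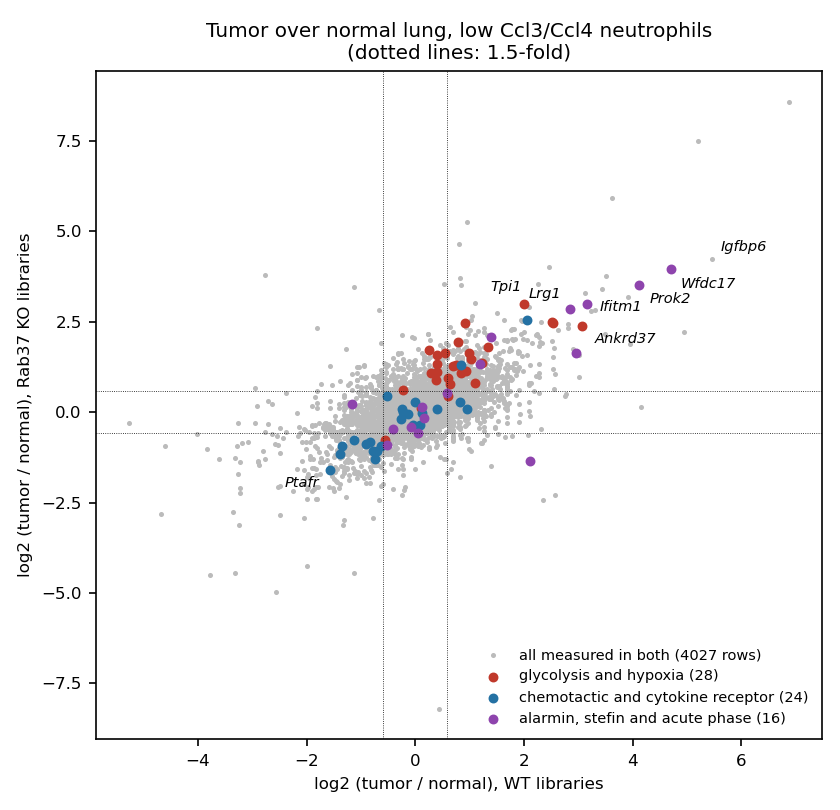
Log2 ratio of tumor low-Ccl neutrophils to matched normal cells in Rab37 KO (y axis) against that in WT (x axis) for 4027 genes measured in both, with genes of 3 lists coloured (glycolysis and hypoxia, 28; receptors, 24; alarmins, 16). Of the coloured glycolysis and hypoxia genes 17 lie past 1.5-fold up in both and 0 down, while 10 receptor genes lie down in both and 2 up.

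Within tumor, low-Ccl neutrophils of Rab37 KO were compared with those of WT, the genotypes the study compared, in a pair of libraries that also differ in sex, size and macrophage RNA. Of 5215 measured genes, 1045 were higher in KO (20.0%) and 588 lower (11.3%). Without mixed cells the counts turned to 649 higher and 683 lower of 4366, and 513 and 389 of those were among the genes first counted. In the matched normal cells, 567 of 5120 genes were higher in KO (11.1%) and 588 lower (11.5%). Ifitm1 and Lrg1 stayed within 1.5-fold, with a KO to WT ratio of 1.03 (0.937 to 1.14) for Lrg1. The tumor comparisons above and this one share the tumor libraries. The KO cells also lay nearer the 1% limit, with a median Ccl3 and Ccl4 share of 0.318% against 0.164% in WT. How far that adds to the KO to WT ratios below was not tested.

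Many chemokine and cytokine ligands were higher in KO. Of 20 measured, 13 were higher and 1 lower, beside 20.0% and 11.3% of all genes. Their median log2 ratio was 1.02 beside 0.05 for all genes, and 11 of 18 were higher and 0 lower without mixed cells. In matched normal cells 5 of 20 were higher and 1 lower. Osm, oncostatin M, a cytokine of the interleukin 6 family, was at 367 CPM in WT tumor, 717 CPM in KO tumor, 522 CPM in WT normal lung and 506 CPM in KO normal lung. Its KO to WT ratio was 1.95 (1.65 to 2.32) in tumor and 0.970 in normal lung, and ranged from 1.79 to 2.23 over the alternative settings. B cells of the same tumor libraries gave a ratio of 0.962 (0.397 to 2.42). Tnf was at 86.9, 186, 171 and 150 CPM, a tumor ratio of 2.14 that ranged from 1.77 to 2.74 over the settings, and Il15, a growth factor of lymphocytes, at 47.2, 115, 171 and 187 CPM, a ratio of 2.43 (1.53 to 4.08). For all 3 cytokines the WT tumor library was the lowest of the 4. Thinned cells with Osm were 27.4% (19.5 to 36.4) in WT tumor and 46.2% (41.8 to 50.7) in KO tumor, with 3.57% and 4.35% in B cells, and 59.2% and 80.2% before thinning.

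Other ligands of the list were higher in KO but rested on fewer cells, and their RNA was also present in KO B cells. Cxcl1, a neutrophil attractant, had 5 UMIs in 4 WT cells (12.4 CPM) and 1264 UMIs in 101 KO cells (397 CPM), a ratio of 32.0 (13.7 to 98.6) that was 12.6 without mixed cells. In normal lung Cxcl1 was at 37.0 and 166 CPM. Ccl9 was at 29.8, 406, 64.7 and 36.8 CPM, a tumor ratio of 13.6 (7.78 to 26.5) and 6.22 without mixed cells. B cells of KO tumor held 110 CPM of Cxcl1 and 123 CPM of Ccl9. Ccl2, a monocyte attractant, was at 91.9, 335, 9.24 and 47.4 CPM, and its ratio of 3.65 (2.63 to 5.21) ranged from 1.66 to 4.05 over the settings. Arg1, the arginase of suppressive myeloid cells, had a ratio of 14.8 (9.82 to 23.3), 4.68 without mixed cells, and KO B cells held 381 CPM of it. The part of RNA from macrophages or from outside the cells in these 4 ratios was not tested.

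Ptgs2 shows the same limit. Its level was 643 CPM in WT tumor and 1480 CPM in KO tumor, a ratio of 2.30 (2.03 to 2.61). B cells of the 2 libraries held 14.1 and 207 CPM. After thinning it was found in 31.6% of WT and 51.8% of KO low-Ccl neutrophils (45% and 71.1% before). In B cells it was found in 0 of 56, which allows a share of up to 5.36%, and in 7.25% of 69. S100a8, which B cells do not make, stood at 179 CPM in WT tumor B cells and 1130 CPM in KO tumor B cells.

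Some genes of glucose uptake and hypoxia were higher in KO within tumor. Of 29 measured, 10 were higher, 0 lower and 19 neither, beside 20.0% of all genes higher and 11.3% lower, and the counts were 11 and 0 without mixed cells. The median log2 ratio was 0.45. The normal libraries gave 1 of 28 higher and 0 lower. Slc2a1, the glucose transporter GLUT1, was at 179 CPM in WT tumor, 354 CPM in KO tumor, 146 CPM in WT normal lung and 168 CPM in KO normal lung, a tumor ratio of 1.98 (1.56 to 2.55). Egln3, a prolyl hydroxylase that marks HIF for degradation and is itself a HIF target, was at 49.7, 123, 33.9 and 40.1 CPM, a ratio of 2.48 (1.58 to 4.10). Ndrg1 was at 34.8, 137, 29.3 and 41.7 CPM and Ero1l, an oxidase of the endoplasmic reticulum, at 67.0, 251, 35.4 and 45.8 CPM. In all 4 genes the KO tumor library was the highest of the 4. The ratio of Ero1l was 3.75 (2.56 to 5.72) and that of Ndrg1 3.95 (2.33 to 7.28), and without mixed cells they were 2.40 and 2.73. B cells gave KO to WT ratios of 3.89 (1.62 to 11.3) for Slc2a1 and 5.50 (1.95 to 21.4) for Ero1l, so these ratios were not confined to low-Ccl neutrophils.

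A second ranking of KO to WT ratios left the mixed cells out, and Chka, Sla and Slc9a3r1 were among its 10 highest genes. They were not among the 10 highest over all low-Ccl neutrophils. That their ratios moved little without mixed cells is thus partly built into how they were picked. Chka, choline kinase alpha, was at 49.7 CPM in WT tumor, 192 CPM in KO tumor, 95.5 CPM in WT normal lung and 80.1 CPM in KO normal lung. Its tumor ratio of 3.87 (2.48 to 6.38) ranged from 3.63 to 4.51 over the settings, and B cells gave 1.24 (0.712 to 2.23). Sla, an adaptor that dampens receptor signalling, was at 44.7, 125, 57.0 and 63.8 CPM, a ratio of 2.80 (1.75 to 4.77). Slc9a3r1, a scaffold protein beneath the membrane, was at 127, 325, 143 and 234 CPM, a ratio of 2.56 (1.93 to 3.47), while B cells gave 3.78 (1.56 to 11). Over all low-Ccl neutrophils, genes of macrophages and platelets were among those with the largest ratios. Mrc1, the mannose receptor of macrophages, had 2 UMIs in 1 WT cell and a ratio of 52.0 (14.3 to 430), which was 10.6 without mixed cells. Pf4, a platelet chemokine, had 27.8 and 6.74, and Fn1, fibronectin, 12.6 and 2.93. Of 14 macrophage markers measured, 11 were higher in KO and 1 lower. Mrc1, Pf4, Fn1 and the other macrophage markers helped to define the mixed cells, so the fall of their ratios without those cells is partly built into that filter.

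Some interferon genes and most antigen presentation genes measured were lower in KO. Of 16 interferon genes measured in tumor, 7 were lower, among them Ifit3 and Isg15, 1 was higher (Ifi204) and 8 were neither, beside 11.3% of all genes lower and 20.0% higher. Without mixed cells 5 of 14 were lower and 1 higher. Irf7 and Oasl1 were among the 7, but over the settings the ratio of Irf7 ran from 0.577 to 1.21 and that of Oasl1 from 0.518 to 1.53, across 1 in both. In normal lung 5 of 17 were lower in KO and 2 higher. Isg15, a ubiquitin-like protein induced by type I interferon, was at 144 CPM in WT tumor, 30.8 CPM in KO tumor, 81.6 CPM in WT normal lung and 107 CPM in KO normal lung. Its KO to WT ratio was 0.214 (0.153 to 0.301) in tumor and 1.31 (0.947 to 1.84) in normal lung, and the tumor ratio ranged from 0.165 to 0.248 over the settings. After thinning, 5.98% (2.44 to 11.9) of WT and 2.79% (1.53 to 4.63) of KO low-Ccl neutrophils had an Isg15 UMI (23.3% and 12.3% before), and these intervals overlap. In B cells the thinned shares were 1.79% and 0 of 69, which allows up to 4.35%.

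Of 15 antigen presentation genes, 9 were lower in KO and 1 higher (Cd86), with and without mixed cells, and 3 were higher and 1 lower in normal lung. Psmb8, a subunit of the immunoproteasome, was at 159 and 93.5 CPM in tumor, a ratio of 0.589 (0.448 to 0.784). It ran from 0.510 to 1.07 over the settings, and the ratio of Cd86 reached down to 0.746. B cells of the same tumor libraries gave 0.508 (0.363 to 0.707) for Psmb8, 0.660 (0.437 to 0.997) for H2-Q7 and 2.26 (1.22 to 4.45) for Cd86. The direction of these 3 ratios was thus not confined to low-Ccl neutrophils. The class II genes among the 9 rested on few cells. Cd74, the invariant chain, was at 1300 and 667 CPM, H2-Aa at 574 and 184 CPM, H2-Ab1 at 584 and 253 CPM and H2-Eb1 at 561 and 207 CPM. Between 37.5% and 42.4% of their WT UMIs came from 1 cell. Without the 5 deepest cells of each library the 4 ratios reversed to 2.74, 1.64, 2.37 and 1.99 in the order just given. The direction of the class II ratios thus rests on the deepest cells. In B cells the ratios of Cd74, H2-Aa, H2-Ab1 and H2-Eb1 were 0.924, 1.09, 0.883 and 0.786. Genes of the H2 family, stefins such as Stfa2 and other near-identical copies can share reads, so their single values are uncertain.

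Some short RNAs were lower in KO in B cells too. Tmsb10, an actin-binding thymosin, was at 1030 CPM in WT tumor and 417 CPM in KO tumor, a ratio of 0.404 (0.362 to 0.452), with 0.412 (0.364 to 0.466) in B cells. Grcc10 was at 99.3 and 19.5 CPM, 0.196 (0.130 to 0.299), with 0.388 (0.181 to 0.800). Both ratios were below 1 in both cell types.

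**Figure D4:**
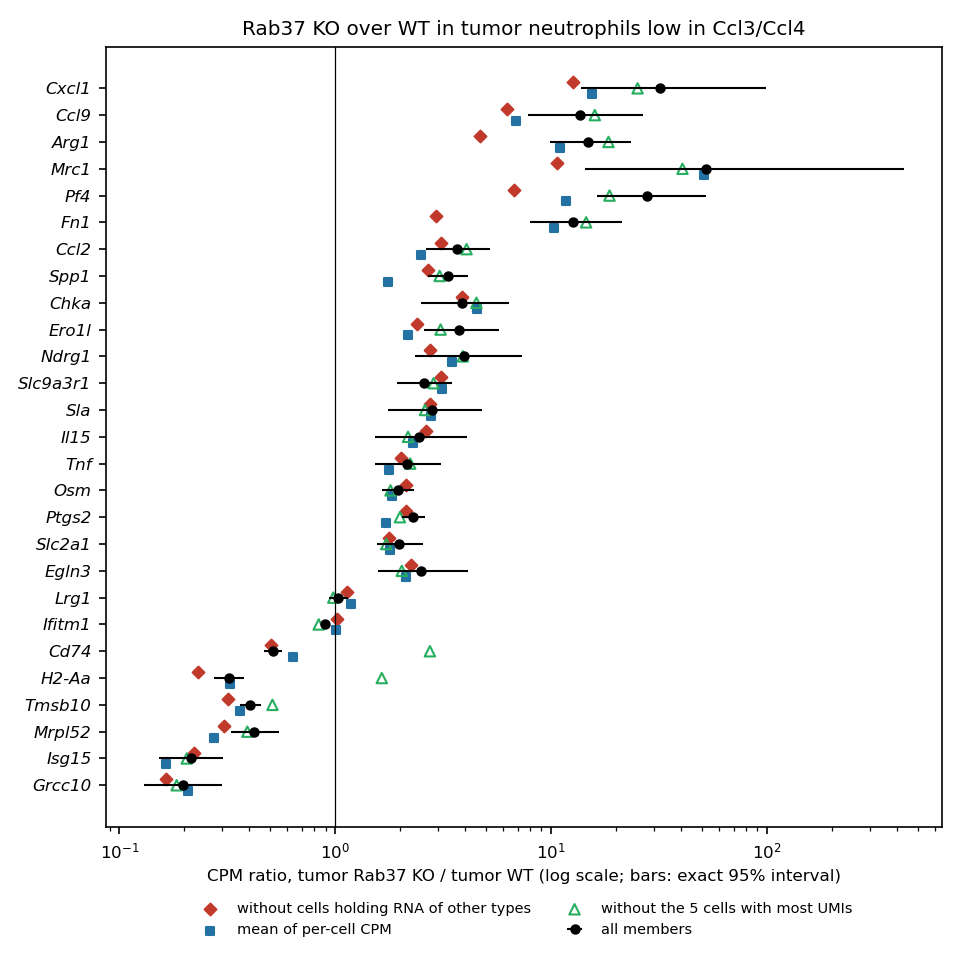
Ratio of KO tumor to WT tumor in low-Ccl neutrophils (x axis, log scale) for 27 genes, over all cells with exact 95% intervals (black), without cells holding RNA of other types (red diamonds), as the mean of per-cell CPM (blue squares) and without the 5 cells with most UMIs per library (green triangles). Mrc1, Pf4 and Fn1, which are among the markers that define mixed cells, and Arg1 move toward 1 without those cells, Chka, Osm and Isg15 hardly move, and Cd74 and H2-Aa cross 1 when the largest cells are left out.

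Osteopontin and its receptor were read because the study concerns them. Spp1, which encodes osteopontin, was at 233 CPM (189 to 286) in WT tumor, 772 CPM (742 to 803) in KO tumor, 376 CPM in WT normal lung and 839 CPM in KO normal lung. The KO level exceeded WT by 3.31-fold (2.69 to 4.11) in tumor and 2.23-fold (1.94 to 2.58) in normal lung. It came from 19 WT and 155 KO tumor cells, 1 of which held 17.3% of the KO UMIs, and the tumor ratio was 2.69 without mixed cells and 1.75 as a mean over cells. Thinned, 5.98% and 15.1% of tumor and 10.9% and 12.7% of normal cells had a UMI (15.8%, 30.7%, 15.4% and 18% unthinned). In tumor B cells it was 0 of 56, which allows up to 5.36%, and 1.45% of 69. Cd44, a receptor of osteopontin and hyaluronan, was at 809, 1120, 1940 and 2810 CPM. It was lower in tumor in both genotypes, at 0.418 (0.369 to 0.473) and 0.400 (0.382 to 0.420), and its KO to WT ratios of 1.39 in tumor and 1.45 in normal lung did not pass 1.5-fold, while tumor B cells gave 2.69 (1.41 to 5.57). The integrin chain Itgb1 was at 151, 138, 61.6 and 63.8 CPM, and its tumor excess in KO dropped from 2.17 to 1.31 without mixed cells.

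Low-Ccl neutrophils differed from the tumor neutrophils above the limit in more than Ccl3 and Ccl4, and these differences are a description, since the rule cut these same cells. There were 37 such cells in WT and 478 in Rab37 KO. Of 2022 measured genes in WT, 599 were higher in the low-Ccl cells (29.6%) and 259 lower (12.8%). Of 7939 in Rab37 KO, 2854 were higher (35.9%) and 416 lower (5.24%), and without mixed cells 1471 of 6912 were higher and 588 lower. Cxcl3, a further Cxcr2 ligand, was at 0.0924 of the level above the limit in WT and 0.188 in KO, and Il1rn at 0.114 and 0.297. Hilpda, a lipid droplet protein induced by hypoxia, was at 0.161 and 0.426, and Cd274, the checkpoint ligand PD-L1, at 0.257 and 0.411. Ly6g stood at 2.70 and 1.98 times the level above the limit, Lrg1 at 1.38 and 1.39 times, and Ifitm1 at 1.23 and 1.13 times.

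Of the list of genes known from tumor neutrophils, 16 of 23 were lower in the low-Ccl cells of WT and 0 higher, and 15 of 28 were lower in KO and 1 higher. Of the glycolysis and hypoxia list, 14 of 25 were lower in WT and 1 higher, and 7 of 30 were lower in KO and 1 higher. Hk2 was at 32.3 CPM in matched normal cells, 186 CPM in low-Ccl neutrophils and 518 CPM above the limit in WT, and at 44.1, 245 and 309 CPM in KO. Its level in low-Ccl neutrophils lay between the other 2 in both genotypes. The genes ranked highest in the low-Ccl cells included Saa3, Crip1, S100a10 and S100a4, and the macrophage genes Apoe and C1qb. None of the WT cells above the limit and 10 of the KO ones exceeded 0.5% of UMIs from other cell types.

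Levels of several genes differed along the Ccl share of mature tumor neutrophils, on both sides of the limit. Cells were divided at 0, 0.25%, 0.5%, 1% and 2%, with 38, 30, 28, 24, 27 and 10 WT cells and 54, 163, 107, 181, 208 and 270 KO cells from low to high, so the top WT bin is thin. In KO tumor Cxcl3 went from 260 CPM at 0 through 622, 1730 and 2430 CPM below the limit to 5500 and 11900 CPM above it. In WT tumor it was 747, 280, 356 and 1410 CPM below the limit, with no steady order, and 5360 and 12000 CPM above. Normal lung showed a smaller span, from 419 to 1330 CPM in WT and 615 to 1260 CPM in Rab37 KO. Basp1, a membrane-bound cortical protein, went from 405 CPM at 0 to 1790 CPM at 1% to 2% and 3030 CPM above that in WT tumor, and from 592 to 1660 and 2710 CPM in KO tumor. Below the limit Basp1 read 405, 568, 485 and 1080 CPM in WT tumor and 592, 640, 884 and 1290 CPM in KO tumor. Ifitm1 ran the other way over the whole range, from 12600 CPM at 0 to 9050 and 6100 CPM in the same 2 bins of WT tumor and from 13100 to 9210 and 6900 CPM in KO tumor. Below the limit Ifitm1 read 12600, 9300, 9950 and 9670 CPM in WT tumor and 13100, 9710, 8820 and 8490 CPM in KO tumor. Lrg1 went from 1240 to 913 and 397 CPM and from 1770 to 953 and 685 CPM. At every step the tumor level of Ifitm1 lay above both normal libraries.

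**Figure D5:**
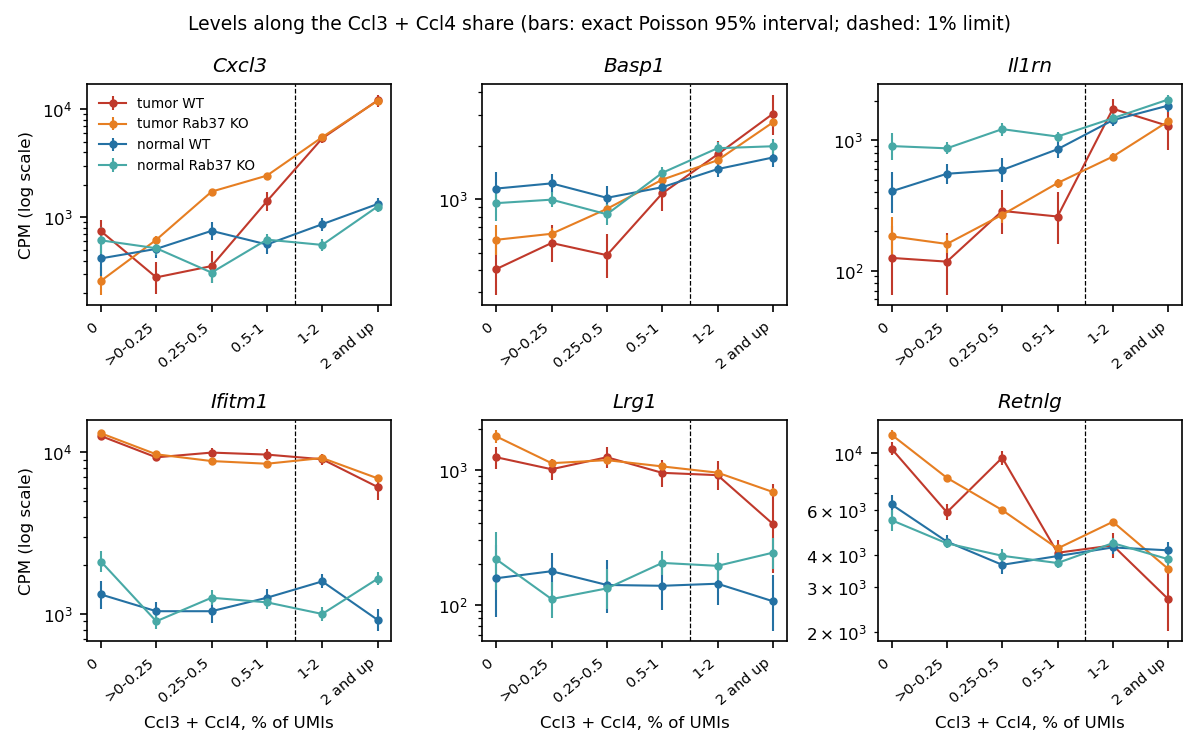
Levels of 6 genes (y axis, CPM, log scale) in bins of the Ccl3 and Ccl4 share (x axis, % of a cell's UMIs) in the 4 libraries, with exact Poisson 95% intervals and the 1% limit dashed. Cxcl3, Basp1 and Il1rn are higher in the top tumor bin than at 0, Ifitm1, Lrg1 and Retnlg are lower, and the tumor lines of Ifitm1 and Lrg1 stay above the normal lines in every bin.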

How the data were processed

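The deposited matrices hold raw counts of UMIs per gene and cell barcode, which the authors made from 10x Genomics 3′ v2 libraries, per the labels' protocols, with no normalization in the values. Per the submitters' processing notes the genome build was mm10. The matrices name software 3.0.1 (normal lung) and 3.1.0 (tumor), per the file headers. No aligner is named: not given in the sources used here. Every barcode held at least 500 UMIs, and 31011 of 31053 features (99.9%) were found in GENCODE vM21.

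UMIs were summed over the chosen cells of a library and divided by their total to give CPM. Intervals are exact at 95%: Poisson for levels, conditional binomial for ratios, Clopper-Pearson for shares. PCR and sampling of animals are not covered. In log2 ratios a count of 0 was given a floor of 3 counts, while the 1.5-fold calls used the counts without a floor. Rab37 KO was compared with WT in each tissue, tumor with normal lung in each genotype, and cells low with cells high in Ccl3 and Ccl4 in each tumor library, with no test. B cells, used as background, had at least 3 UMIs of Cd79a, Cd79b and Ms4a1, none of Cd3e and Csf1r, and under 5% neutrophil gene UMIs. Mixed cells had over 0.5% of UMIs from 79 markers of other types, not counting Chil3, Ctss, Ear1 and Ear2 among them.

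Named genes were the label markers and rule genes, Rab37 and Spp1, the 15 most abundant genes, the 10 with the largest ratio each way at 100 CPM or more with intervals that exclude 1, and members of 35 gene lists (447 genes), up to 4 by level and 4 by ratio at 50 CPM or more. For KO to WT the ranking was made over all low-Ccl neutrophils and again without mixed cells. The rankings skipped predicted, mitochondrial, ribosomal, hemoglobin, antigen receptor, immunoglobulin and sex-linked genes. Other members of a counted list are named to complete the count, and a few genes are not reported here. The cells and lists were chosen with earlier results of these data known. Scrublet (scanpy 1.11.5) called 209, 97, 6 and 4 doublets in normal WT, normal KO, tumor WT and tumor KO, too few in KO tumor (0.147%) to trust, and called cells were kept except in 1 alternative. Scripts used Python 3.11.15, numpy 2.4.6, scipy 1.17.1 and pandas 2.3.3 and were tested on simulated data. Promoters are RefSeq's on GRCm38.p6.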

Additional observations from a re-analysis of the deposited data

Results flagged for a closer look

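The KO to WT ratio passed 1.5-fold in opposite directions in tumor and in normal lung for 6 of 380 genes looked at. Both intervals had to be clear of 1, and the higher group of each tissue had to reach 50 CPM. With 1 library per group the difference between tissues was not tested. Ccl9, a chemokine, had a ratio of 13.6 (7.78 to 26.5) in tumor and 0.569 (0.365 to 0.888) in normal lung, with 6.22 in tumor without mixed cells. Ccl5 had 0.237 (0.161 to 0.356) and 6.45 (3.67 to 12.4), but 97.6% of its UMIs in WT tumor came from 1 of 2 cells. The class II gene H2-Eb1 had 0.369 (0.316 to 0.431) and 1.87 (1.52 to 2.32), but without the 5 deepest cells of each library its tumor ratio was 1.99, on the same side of 1 as in normal lung. The stefin gene BC100530 had 0.426 (0.317 to 0.580) and 4.71 (3.02 to 7.68). The class I gene H2-Q7 had 0.330 (0.223 to 0.499) and 1.55 (1.06 to 2.32). Hspa1b, a heat shock protein induced by stress and by tissue digestion, had 2.19 (1.71 to 2.85) and 0.594 (0.532 to 0.663), with 1.65 in tumor without mixed cells.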

How the results depend on the processing

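No paired analysis was possible because each group is 1 library. Raising the limit on neutrophil genes to 10% of UMIs left 79 low-Ccl neutrophils in WT tumor, and a Ccl3 and Ccl4 limit of 0.5% left 324 in KO tumor. Genes higher in KO than WT, 1045 as reported, numbered 629 at the 10% limit, 649 without mixed cells, 451 with cells thinned to 1000 UMIs, 511 at 2-fold, 565 with at least 100 UMIs and 1823 with 1 UMI per group. Genes lower in KO, 588 as reported, numbered 319, 312, 154, 249 and 2510 at the 10% limit, thinned, at 2-fold, with 100 UMIs and with 1 UMI. Genes higher in tumor in both genotypes fell from 497 to 185 when thinned. The KO to WT ratio of Ccl5 reversed to 3.14 at the 0.5% Ccl limit and to 8.84 without the 5 deepest cells of each library. The latter setting reversed H2-Aa to 1.64, H2-Eb1 to 1.99 and H2-Ab1 to 2.37, and the 10% limit moved H2-Ab1 to 1.05. Thinning and stricter count limits leave fewer UMIs or genes by construction, and the cause of the other shifts was not tested. Of 334 gene ratios over 31 genes and 11 settings, 248 stayed within their interval, 80 moved beyond it and 6 reversed. Only genes past 1.5-fold could be counted as reversed. Some moved ratios of other genes also crossed 1, such as S100a9 at up to 1.03 and Ifitm1 at up to 1.02. WT tumor, with 402729 low-Ccl UMIs, limits the precision of every KO to WT ratio.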
